A study of Mus musculus with 3 samples.

Results

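The genes described here encode 3 cytokines that thymic stroma supplies to lymphocytes, Il7, Kitl (stem cell factor) and Il15, and the 5 chains that receive them, Il7r, Kit, Il15ra, Il2rb and Il2rg. They were chosen by symbol, as 8 of the 32285 genes counted, and all 8 were detected. The cells came from cultures of wild-type C57BL/6J mouse thymus tissue on culture day 13, with fibroblasts added in ORFTOC as described below. FTOC (fetal thymic organ culture) cells came from whole E13.5 lobes. For ORFTOC, thymic epithelial cells (TECs) of E16.5 embryos were expanded as organoids with FGF7, an epithelial growth factor. They were then reaggregated with E13.5 thymus cells from which EpCAM-positive cells had been removed, and with wild-type mouse embryonic fibroblasts. The strain of the fibroblasts is not stated. Cultures of both conditions were kept in medium with FGF7, and with thiazovivin for the first 2 days. For each condition 2 cultures were pooled and marked with a hashtag antibody, and both pools were run as 1 lane of a 5′ droplet assay.

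IL-7 binds a receptor made of IL-7Rα (Il7r) and the common gamma chain (Il2rg), and it sustains early thymocytes, innate lymphoid cells and gamma-delta T cells. KIT is the receptor of stem cell factor and marks early progenitors, mast cells and some innate lymphoid cells. IL-15 is mostly held on the surface of the cell that makes it by IL-15Rα (Il15ra), and it is presented from there to neighbouring cells carrying IL-2Rβ (Il2rb) and the common gamma chain.

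The promoters of 5 members were matched in RefSeq (build GRCm38.p6, the build of the counts), namely those of Il7r, Kitl, Kit, Il15ra and Il2rg. Shown here are the 250 bases before the start of Il7r and of Il2rg, because the pair makes up the IL-7 receptor and the chains had contrasting patterns over lymphoid cells. The Il7r stretch lies at chr15:9529877-9530126 on the minus strand, and the Il2rg stretch at chrX:101268256-101268505 on the minus strand. Capitals mark matches to the STAT-type palindrome TTCNNNGAA and to the ETS-type motif CCGGAA, searched on both strands.
Il7r: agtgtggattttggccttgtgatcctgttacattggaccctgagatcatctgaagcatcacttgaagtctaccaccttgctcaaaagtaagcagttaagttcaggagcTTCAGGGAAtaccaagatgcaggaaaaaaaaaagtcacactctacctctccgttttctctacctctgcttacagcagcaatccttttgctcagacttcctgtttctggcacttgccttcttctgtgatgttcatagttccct
Il2rg: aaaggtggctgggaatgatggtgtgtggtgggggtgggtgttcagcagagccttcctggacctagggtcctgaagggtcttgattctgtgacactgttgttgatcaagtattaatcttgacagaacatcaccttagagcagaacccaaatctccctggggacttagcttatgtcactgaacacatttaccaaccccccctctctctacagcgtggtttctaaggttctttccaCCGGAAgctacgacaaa
The palindrome occurred in the Il7r stretch, in none of the other members' stretches, and in 7.02% of the 32851 promoters searched. CCGGAA, which contains the shorter ETS core GGAA, occurred in the stretches of Il2rg and Kitl, in 1 of the 2 of Il15ra, and in 12.0% of all promoters. The RUNX-type motif TGTGGT was found for Il2rg and in 14.0% of all promoters. The GATA-type motif AGATAA was in no member's stretch and in 9.99% of all promoters. GGAA itself was in every member's stretch and in 93.4% of all promoters. These matches describe letters only.

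After filtering and removal of doublets, 8392 cells were kept, 4144 from FTOC and 4248 from ORFTOC. They comprised 2190 epithelial cells (961 FTOC, 1229 ORFTOC), 267 mesenchymal cells (55 and 212) and 5935 immune cells (3128 and 2807), of which 5581 were lymphoid. The ORFTOC cells were deeper, with a median of 8053 UMIs (unique molecular identifiers, each standing for 1 captured transcript) against 4952. Levels are summed UMIs of a population per 1000000 UMIs of that population (CPM) with 95% Poisson intervals, and ratios carry exact counting intervals. Each pool is 1 sample, so no test between conditions was possible, and intervals and limits cover counting error only. Populations were named "-like" from marker genes, and clusters that met no naming rule kept a number. The pools also differed in sex-linked transcripts, with Eif2s3y at 0.277 CPM in FTOC and 48.6 CPM in ORFTOC lymphoid cells and Xist at 559.8 and 218.6 CPM. The part of this difference in the results, including those of the X-linked Il2rg, was not tested. A barcode of the T cell receptor (TCR) library was shared by 3911 of the cells.

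Il7 was an epithelial transcript, and cortical TEC-like (cTEC-like) cells, which were led by the cortical genes Ccl25, Prss16 and Psmb11, had the highest level in both pools. Epithelial cells held 96.3% of all Il7 UMIs of FTOC while making up 23.2% of its cells, and 95.1% in ORFTOC while making up 28.9%. In cTEC-like cells Il7 was counted 169 times in 33 FTOC cells (306 CPM, 261 to 356) and 1508 times in 253 ORFTOC cells (372 CPM, 353 to 391). Early medullary TEC-like (early mTEC-like) cells, which carry the medullary chemokine Ccl21a, had 168 CPM in FTOC and 177 CPM in ORFTOC. The cTEC-like level was above that of every other population, and the intervals of neighbours further down the order overlapped from early mTEC-like through epithelial cluster 7 and Aire mTEC-like to airway-like cells.

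Il7 in Aire mTEC-like cells, which express the autoimmune regulator Aire, was 173 CPM in 64 FTOC cells and 125 CPM in 37 ORFTOC cells, and over both pools 10 of these cells held 54.9% of the UMIs. Airway-like cells, led by the secretory genes Bpifa1 and Reg3g, had 123 CPM in FTOC and 143 CPM in ORFTOC. Epithelial cluster 3, an unnamed cluster led by Igfbp2 and Aqp3 of which 8.89% were ORFTOC cells, had 105 CPM in FTOC and 120 CPM in ORFTOC. Medullary, airway and unnamed epithelium thus lay between 105 and 181 CPM in either pool, below the cTEC-like cells. Thymocyte-like cells of the CD4 and CD8 positive (DP) stage, taken as the background of ligands, had 5.15 CPM of Il7 in FTOC and 9.82 CPM in ORFTOC. Il7 made up 69.0 CPM of the near-empty droplets. The part of free RNA from lysed cells in the epithelial values was not tested.

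The share of cells with an Il7 UMI was also highest in cTEC-like cells. After thinning to 1000 UMIs per cell, Il7 was seen in 29.7% of cTEC-like cells (24.5 to 35.4), in 14.2% of early mTEC-like cells, in 12.1% of epithelial cluster 3 and in 0.481% of DP thymocyte-like cells. Without thinning the share was 95.5% of cTEC-like cells and 1.07% of DP thymocyte-like cells, whose median depth was 1630 UMIs. Over all cells kept, 117 had under 1000 UMIs and were left out of thinned shares.

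Between the pools, Il7 within the larger epithelial classes differed by less than 2-fold, and of the classes given here only Aire mTEC-like cells were lower in ORFTOC. The ORFTOC over FTOC ratio was 1.22 in cTEC-like cells (1.03 to 1.43), 1.05 in early mTEC-like cells (0.966 to 1.15) and 1.16 in airway-like cells (0.968 to 1.4). In the 101 Aire mTEC-like cells, 10 of which held 54.9% of the Il7 UMIs, it was 0.725 (0.560 to 0.931). The early mTEC-like value went from 0.08 to -0.94 on the log2 scale with hashtags assigned by ratio, under which clusters were named anew. Over all epithelial cells it was 1.36 (1.29 to 1.45), and the classes were unevenly divided, since cTEC-like cells were 253 of 1229 ORFTOC and 33 of 961 FTOC epithelial cells. The cTEC-like cells held 40.5% of the Il7 UMIs in ORFTOC and 8.66% in FTOC, where early mTEC-like cells held 46.5%. With class shares held equal, an alternative added after the data were seen, the log2 ratio went from 0.45 to 0.15.

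Mesenchymal cells had little Il7, and it was the member past 2-fold there. It was counted 5 times in 55 FTOC cells (5.15 CPM) and 94 times in 212 ORFTOC cells (20.2 CPM), a ratio of 3.92 (1.62 to 12.4), or 1.97 on the log2 scale and 1.00 with hashtags assigned by ratio. The FTOC value was no higher than that of FTOC DP thymocyte-like cells (5.15 CPM), the background of ligands. Over both pools 10 of the 267 mesenchymal cells held 48.5% of the Il7 UMIs. The ORFTOC UMIs lay mostly in mesenchymal cluster 1, led by Cxcl13 and Ccl19, with 78 UMIs (45.8 CPM) against 16 UMIs (5.43 CPM) in cluster 2, led by Spp1 and Col8a1. Of the 6 members with at least 20 UMIs in mesenchymal cells 1 was past 2-fold, beside 7.73% of 11046 genes. Epcam, an epithelial marker, stood at 44.3 CPM in FTOC and 11.6 CPM in ORFTOC mesenchymal cells, and the part of epithelial RNA in the Il7 ratio was not tested. ORFTOC mesenchyme holds added embryonic fibroblasts, and their part and that of culture format cannot be told apart.

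**Figure D1:**
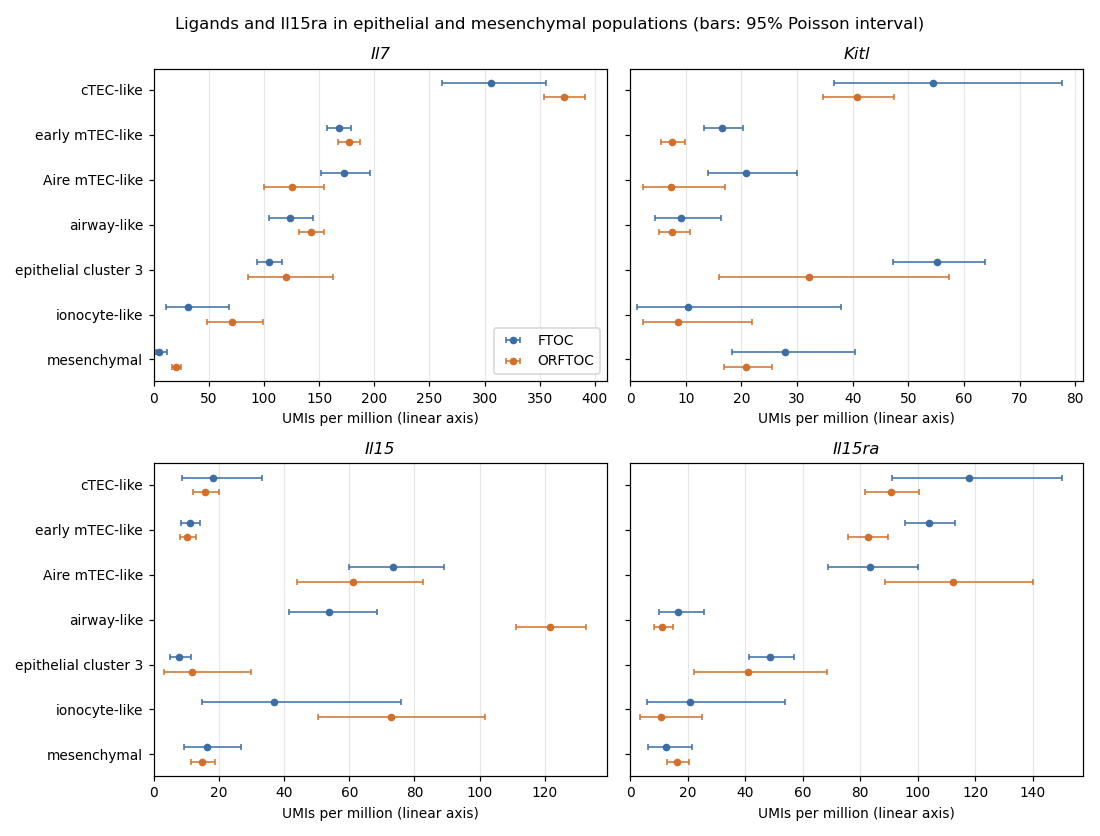
Level of Il7, Kitl, Il15 and Il15ra (x axes, CPM, linear) in epithelial and mesenchymal populations (y axes), with a point for FTOC (blue) and for ORFTOC (orange) and bars for the 95% Poisson interval. Il7 was highest in cTEC-like cells in both pools (306 and 372 CPM), and Il15 in airway-like cells was 53.7 CPM in FTOC and 122 CPM in ORFTOC.

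Kitl, the ligand of KIT, had a different distribution, shared between cTEC-like cells, the unnamed Aqp3 cluster and mesenchyme. Epithelial cluster 3 had 178 UMIs in 287 FTOC cells (55.1 CPM) and 11 UMIs in 28 ORFTOC cells (32.1 CPM). The cTEC-like cells had 30 UMIs in FTOC (54.4 CPM) and 165 UMIs in ORFTOC (40.7 CPM). These neighbours in the order did not differ beyond their intervals (45.6 to 61.0 CPM and 36.6 to 48.7 CPM over both pools).

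Kitl in mesenchymal cells was 27.8 CPM in FTOC (27 UMIs) and 20.9 CPM in ORFTOC (97 UMIs), and cluster 1 had more than cluster 2 in both pools, 41.3 against 14.4 CPM in FTOC and 45.8 against 6.45 CPM in ORFTOC. Airway-like cells were low, with 9.09 and 7.61 CPM. Kitl was next to absent from thymocytes, with 2 UMIs in 1962 DP thymocyte-like cells. Kitl was lower in ORFTOC in the medullary classes, but at low levels. Kitl made up 16.15 CPM of the near-empty droplets, beside 11.5 CPM in early mTEC-like and 16.4 CPM in Aire mTEC-like cells over both pools. Of the 34 Kitl UMIs of Aire mTEC-like cells, 70.6% lay in 10 cells. The part of free RNA in these values was not tested. In early mTEC-like cells 89 UMIs in FTOC (16.4 CPM) stood against 50 in ORFTOC (7.50 CPM), a ratio of 0.456 (0.316 to 0.652; log2 -1.13, or -0.53 at higher cluster resolution), and in Aire mTEC-like cells 29 against 5, a ratio of 0.349 (0.105 to 0.911). The early mTEC-like class joined 2 clusters in unlike shares, epithelial cluster 1 with 288 FTOC and 423 ORFTOC cells and cluster 5 with 130 and 65, and Kitl was lower in ORFTOC in each, at 17.5 against 8.39 CPM in cluster 1 and 13.9 against 1.22 CPM (22 UMIs against 1) in cluster 5. The intervals held 1 for cTEC-like (0.505 to 1.15), airway-like (0.411 to 1.84), epithelial cluster 3 (0.285 to 1.07) and mesenchymal cells (0.485 to 1.2). Over all epithelial cells the ratio was 0.581 (0.494 to 0.683).

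The Kitl transcripts lay in different cells in each pool. In FTOC 46.2% of the Kitl UMIs lay in epithelial cluster 3, 7.79% in cTEC-like and 7.01% in mesenchymal cells. In ORFTOC the shares were 2.87%, 43.1% and 25.3%. In cells thinned to 1000 UMIs, Il7 and Kitl were seen together in 2 of 286 cTEC-like cells (0.699%), where the product of their separate shares was 1.14%.

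Il15 had another pattern, led by airway-like and Aire mTEC-like cells. Airway-like cells had 65 UMIs in 110 FTOC cells (53.7 CPM, 41.4 to 68.5) and 511 UMIs in 346 ORFTOC cells (122 CPM, 111 to 133). Aire mTEC-like cells had 102 UMIs in FTOC (73.4 CPM) and 42 in ORFTOC (61.1 CPM), and over both pools 10 of these cells held 56.2% of the UMIs. The other epithelial populations of at least 50 cells had 8.12 to 16.1 CPM over both pools. Ionocyte-like cells, which express Foxi1, had 7 UMIs in 15 FTOC cells (36.8 CPM) and 34 in 28 ORFTOC cells (72.8 CPM).

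Between the pools Il15 was higher in ORFTOC within the airway-like class. Its ratio in airway-like cells was 2.26 (1.74 to 2.97), against 0.920 (0.641 to 1.32) in early mTEC-like and 0.833 (0.567 to 1.2) in Aire mTEC-like cells. The early mTEC-like value turned from -0.12 to 0.70 on the log2 scale with hashtags assigned by ratio. The airway ratio was between 1.04 and 1.26 on the log2 scale under all 12 alternatives run for it. The summed level of the airway markers moved with it, at 50940 CPM in FTOC and 79540 CPM in ORFTOC airway-like cells, and the part of cell state within the class was not tested. In airway-like cells 3 of the 7 members with at least 20 UMIs were past 2-fold, beside 8.76% of 10964 genes, and besides Il15 these were Il7r (1 UMI in FTOC, 28 in ORFTOC) and Il2rg (4 and 51). For Il7r 89.7% and for Il2rg 80.0% of the UMIs lay in 10 cells, and the Il2rg ratio turned from 3.67 to below 1 with log-normalised counts.

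Among immune cells Il15 was highest in dendritic-like cells, and it was also counted in macrophage or monocyte-like and innate lymphoid cells. The 29 dendritic-like cells had 102 CPM over both pools (26 UMIs, 66.4 to 149). Macrophage or monocyte-like cells had 21.9 CPM in FTOC (15 UMIs) and 17.0 CPM in ORFTOC (46 UMIs). Over both pools the innate lymphoid ILC3-like cells had 9.61 CPM (27 UMIs, 6.33 to 13.98). ILC2-like cells, also innate lymphoid, had 9.999 CPM (15 UMIs, 5.596 to 16.49). Both intervals overlapped that of macrophage or monocyte-like cells (13.76 to 23.11). Il15 made up 12.22 CPM of the near-empty droplets, and the part of free RNA in these values was not tested. In ORFTOC airway-like cells held 55.9% of the Il15 UMIs, and in FTOC Aire mTEC-like cells held 31.4%, more than the airway-like cells.

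Il15ra, which presents IL-15, did not follow Il15 across epithelium. The highest levels were those of cTEC-like cells (118 CPM in FTOC, 90.5 CPM in ORFTOC), early mTEC-like cells (104 and 82.5 CPM) and Aire mTEC-like cells (83.5 and 112 CPM), whose intervals overlapped over both pools. Airway-like cells had 16.5 CPM in FTOC (20 UMIs) and 11.2 CPM in ORFTOC (47 UMIs). Il15ra was thus low where Il15 was high in the airway-like class and high with it in Aire mTEC-like and dendritic-like cells (113 CPM, 29 UMIs). In thinned cells Il15 and Il15ra were seen together in 0 of 456 airway-like cells, a share whose exact 95% interval reached 0.806%, and in 1 of 101 Aire mTEC-like cells.

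The Il15ra ratio was 0.795 (0.705 to 0.895) in early mTEC-like, 0.769 (0.589 to 1.02) in cTEC-like and 1.34 (0.994 to 1.81) in Aire mTEC-like cells. Within the early mTEC-like class Il15ra separated the 2 clusters, at 138 and 90.7 CPM in epithelial cluster 1, led by Ccl19 and Ccl11, and at 22.7 and 24.4 CPM in epithelial cluster 5, led by Rrad and Cxcl14 (FTOC first). In DP thymocyte-like cells Il15ra had 44 UMIs in FTOC (17.4 CPM) and 5 in ORFTOC (4.91 CPM), a ratio of 0.282 (0.0871 to 0.708). Both values were at or under the 22.1 CPM of near-empty droplets, and 1 of the 5 members tested there was past 2-fold, beside 3.08% of 9135 genes.

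**Figure D2:**
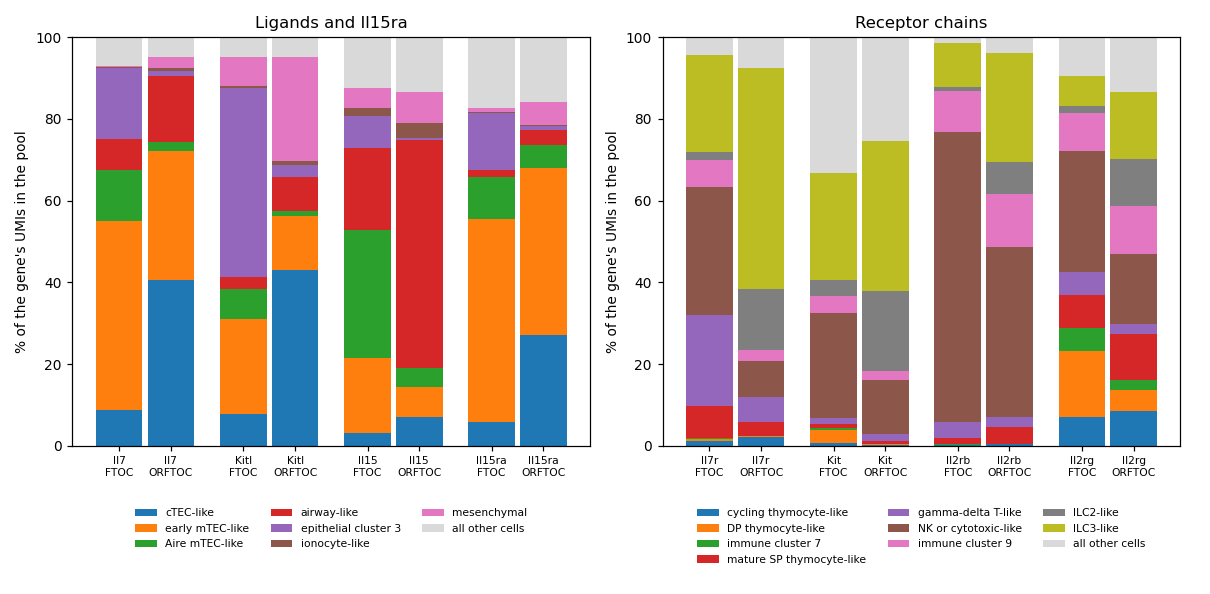
Share of each gene's UMIs (y axes, % of the UMIs of that gene in the pool) held by each population, as stacked bars for FTOC and ORFTOC, with ligands and Il15ra on the left and receptor chains on the right. In FTOC early mTEC-like cells held 46.5% of Il7, in ORFTOC cTEC-like cells held 40.5%, and ILC3-like cells held 23.9% of Il7r in FTOC and 54.2% in ORFTOC.

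Over all epithelial cells, 1 of the 8 members was past 2-fold, Il2rb (14 UMIs in FTOC, 55 in ORFTOC), beside 11.7% of 14834 genes. Of its 69 UMIs, 65.2% lay in 10 cells, and 41 lay in epithelial cluster 7, whose leading genes (Ms4a4b, Cd3d, Cd3g) are T cell genes. In early mTEC-like cells 2 of 7 members were past 2-fold, Kitl and Il7r (5 and 27 UMIs, 87.5% of them in 10 cells), beside 6.74% of 12467 genes.

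Il7r was highest in innate lymphoid cells (ILCs) and gamma-delta T cells and close to absent from DP thymocytes. ILC3-like cells, which express Il22, had 563 UMIs in 122 FTOC cells (820 CPM, 754 to 891) and 2637 UMIs in 450 ORFTOC cells (1241 CPM, 1194 to 1290). Gamma-delta T-like cells, led by Il17a, had 645 and 756 CPM, and ILC2-like cells, led by Il13, had 284 CPM in 19 FTOC and 539 CPM in 235 ORFTOC cells. These 3 classes stood apart from all other lymphoid populations and from each other over both pools. They were followed by NK or cytotoxic-like cells, called cytotoxic-like from here, (170 and 127 CPM) and mature SP thymocyte-like cells (178 and 97.4 CPM).

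Among the alphabeta T lineage populations named here, Il7r was low in cycling and DP thymocyte-like cells and higher in mature SP (CD4 or CD8 positive) thymocyte-like cells. No cluster took the name of early progenitors or of double negative (DN) thymocytes, the stage before DP, so those stages have no value here. Cycling thymocyte-like cells had 9.96 CPM in FTOC (27 UMIs) and 23.5 CPM in ORFTOC (105 UMIs), and DP thymocyte-like cells 5.55 CPM (14 UMIs) and 5.89 CPM (6 UMIs). All of these values lay under the 66.4 CPM of Il7r in near-empty droplets. The DP level did not stand above the 4.48 and 7.07 CPM of epithelial cells, which serve as the background. That background includes epithelial cluster 7, led by T cell genes, at 69.0 CPM over both pools. The other epithelial populations of at least 50 cells had 0.560 to 17.3 CPM. Immune cluster 7, unnamed because DP and selected-thymocyte markers tied and led by Cd5, Cd24a and Itm2a, had 10.5 CPM (6 UMIs) and 30.5 CPM (10 UMIs). In thinned cells Il7r was seen in 60.3% of ILC3-like, 11.7% of mature SP thymocyte-like, 0.374% of DP thymocyte-like, 0.298% of cycling thymocyte-like and 0.594% of epithelial cells. The SP level was 116 CPM (91.5 to 145) in the 107 SP cells with a Cd4 and no Cd8a UMI and 91.7 CPM (74.7 to 111) in the 156 with a Cd8a and no Cd4 UMI, with overlapping intervals.

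The pools differed in Il7r in opposite directions by class. Il7r was higher in ORFTOC in ILC3-like cells, with a ratio of 1.51 (1.38 to 1.66), and in ILC2-like cells, with 1.90 (1.4 to 2.65). It was also higher in cycling thymocyte-like cells, with 2.35 (1.53 to 3.74; log2 1.24, or 0.60 with log-normalised counts), at levels under the 66.4 CPM of near-empty droplets. It was lower in ORFTOC in mature SP thymocyte-like cells, with 0.546 (0.440 to 0.677; log2 -0.87, or -0.38 with 30 principal components), and in the proliferating unnamed immune cluster 9, led by Xcl1 and Ly6c2, with 0.486 (0.384 to 0.616). Among the SP cells with a Cd4 and no Cd8a UMI the level was 119 CPM (87.0 to 159) in ORFTOC and 112 CPM (75.7 to 160) in FTOC. It was 77.9 CPM (59.9 to 99.7) and 130 CPM (91.6 to 178) in those with a Cd8a and no Cd4 UMI, and 112 CPM (84.8 to 146) and 247 CPM (204 to 297) in the SP cells with both or neither. The intervals of the pools thus lay apart only in the SP cells with both or neither. The 76 Il7r UMIs of the Cd4 cells were too few to show whether the pools differ there. In cytotoxic-like cells the ratio was 0.749 (0.663 to 0.845), but it was 0.662 in immune cluster 6, which held 282 of the 445 FTOC cells of the class, and 1.4 in cluster 8, which held 167 of the 319 ORFTOC cells. Gamma-delta T-like cells were near even, at 1.17 (1.01 to 1.35).

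Over all lymphoid cells Il7r had a ratio of 1.64 (1.56 to 1.73), and the log2 ratio went from 0.72 to 0.24 with class shares held equal. ILC3-like cells were 450 of 2575 ORFTOC and 122 of 3006 FTOC lymphoid cells, and they held 54.2% of the Il7r UMIs in ORFTOC and 23.9% in FTOC. DP thymocyte-like cells, at 1403 in FTOC and 559 in ORFTOC, moved the other way.

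The members past 2-fold, among those with at least 20 UMIs in a class, are given here beside the share of all genes. In cycling thymocyte-like cells they were Il7r and Il15ra (16 UMIs in FTOC, 11 in ORFTOC), 2 of 3 beside 3.92% of 9442 genes. The levels there were 18.4 CPM of Il7r and 3.76 CPM of Il15ra over both pools, under the 66.4 and 22.1 CPM of near-empty droplets. In immune cluster 9 the member past 2-fold was Il7r, 1 of 4 beside 3.63% of 8834 genes. In ILC3-like cells it was Il15 (2 and 25 UMIs), 1 of 6 beside 5.67% of 8886 genes. None of 3 was in mature SP thymocyte-like cells (4.33% of 7734 genes), none of 5 in cytotoxic-like cells (2.93% of 9842 genes), and none of 1 in immune cluster 7 (5.77% of 6027 genes). In immune cluster 14, an unnamed mixed cluster led by the parathyroid genes Pth and Chga and kept out of the lymphoid cells, 3 of 6 were (14.3% of 6777 genes).

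**Figure D3:**
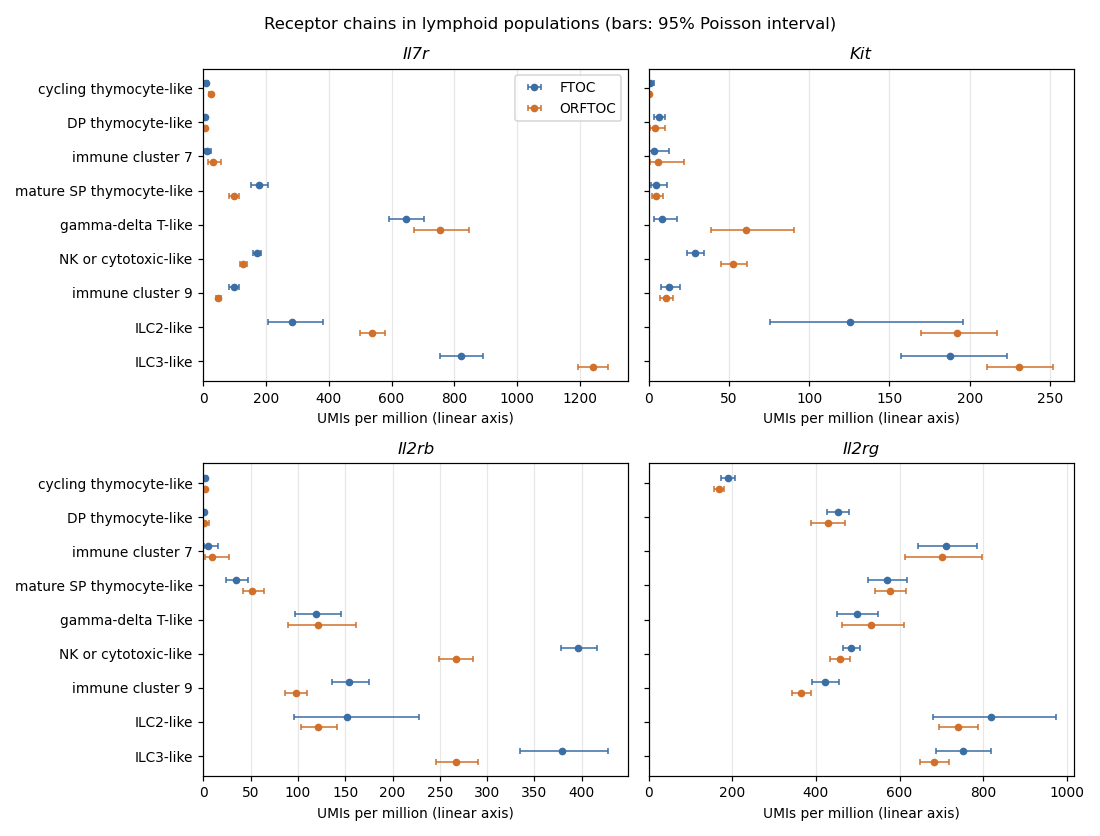
Level of Il7r, Kit, Il2rb and Il2rg (x axes, CPM, linear) in lymphoid populations (y axes), with a point for FTOC (blue) and for ORFTOC (orange) and bars for the 95% Poisson interval. Il7r was highest in ILC3-like cells, Kit in ILC3-like and ILC2-like cells, and Il2rb in cytotoxic-like and ILC3-like cells. Il2rg was detected in every population, from 168 CPM in cycling to 818 CPM in ILC2-like cells.

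Kit was carried by innate lymphoid cells. ILC3-like cells had 129 UMIs in FTOC (188 CPM, 157 to 223) and 490 in ORFTOC (231 CPM, 211 to 252), and ILC2-like cells had 19 UMIs (125 CPM) and 259 (192 CPM). The intervals of these classes overlapped over both pools. Cytotoxic-like cells had 28.9 and 52.8 CPM, almost all from immune cluster 8, led by Gzmc and Gzmb, with 50.2 and 90.3 CPM, and over both pools 69.5 CPM against 9.11 CPM in cluster 6. Thymocytes were low, with 4 Kit UMIs in 671 cycling and 20 in 1962 DP thymocyte-like cells.

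Transcripts of early progenitors and of mast cells, which also carry KIT, were scarce. The paper annotated clusters running from thymus-seeding progenitors to early DN cells, with more such cells in ORFTOC. Which of the populations here hold those cells was not tested. The 8 markers of early progenitors summed to 12.9 CPM in lymphoid cells, none reached 5% of cells, and Flt3, a receptor of the earliest progenitors, had 3 UMIs in all 5581 lymphoid cells. The 22 immune cells with at least 5 Kit UMIs comprised 10 cytotoxic-like, 5 ILC3-like and 3 ILC2-like cells and 4 others. Of 7 mast cell genes, these 22 cells held 3 UMIs of Cpa3 and none of Mcpt4, Tpsb2, Fcer1a, Gata2, Cma1 or Ms4a2.

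Kit over all lymphoid cells had a ratio of 2.50 (2.21 to 2.84), and it was the member past 2-fold of 7, beside 6.40% of 12381 genes. Within classes the ratios were smaller, at 1.23 (1.01 to 1.5) in ILC3-like, 1.53 (0.962 to 2.59) in ILC2-like and 1.82 (1.44 to 2.31; log2 0.87, or 0.36 with log-normalised counts) in cytotoxic-like cells. Over all lymphoid cells the log2 ratio went from 1.32 to 0.51 with class shares held equal. In gamma-delta T-like cells Kit had 7 UMIs in 115 FTOC cells (8.60 CPM) and 24 in 65 ORFTOC cells (60.9 CPM), a ratio of 7.08 (2.96 to 19.4), with 71.0% of the UMIs in 10 cells. There Kit was 1 of 4 members past 2-fold, beside 8.54% of 6467 genes.

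Kit was also found in epithelium, in ionocyte-like cells. The 15 FTOC cells had 34 UMIs (178 CPM) and the 28 ORFTOC cells 42 UMIs (89.9 CPM, 64.8 to 122), a ratio of 0.504 (0.313 to 0.816). Over both pools 63.2% of these UMIs lay in 10 cells. Ptprc, which encodes the leukocyte antigen CD45, had 25.9 CPM in ionocyte-like and 347.6 CPM in ILC3-like cells. The other epithelial populations had 2.52 to 30.1 CPM of Kit over both pools, with Aire mTEC-like cells at 31.6 CPM in FTOC and 23.3 CPM in ORFTOC and airway-like cells at 15.7 and 25.4 CPM.

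Il2rb, the signalling chain shared by IL-15 and IL-2, was highest in cytotoxic-like cells, with 396 CPM in FTOC (1726 UMIs) and 267 CPM in ORFTOC (885 UMIs), and in ILC3-like cells, with 379 and 267 CPM. The intervals of these classes overlapped within each pool, and then came ILC2-like, gamma-delta T-like and cluster 9 cells between 97.5 and 154 CPM. Mature SP thymocyte-like cells had 34.1 and 51.9 CPM. DP thymocyte-like cells had 3 UMIs among 1962 cells (0.847 CPM over both pools) and cycling thymocyte-like cells 12 among 671 (1.67 CPM). The 2.32 CPM of all epithelial cells was raised by epithelial cluster 7, which was led by T cell genes and had 42.2 CPM. The other epithelial populations of at least 50 cells had 0.280 to 1.93 CPM, a range that holds both thymocyte values. Il2rb was thus high in cytotoxic and innate lymphoid cells and at background in DP and cycling thymocytes.

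Il2rb was lower in ORFTOC in the classes that held most of it. The ratio was 0.673 (0.620 to 0.730) in cytotoxic-like cells, 0.706 (0.608 to 0.820) in ILC3-like cells and 0.632 (0.530 to 0.753) in immune cluster 9. It was below 1 in each cytotoxic cluster, at 0.566 (0.475 to 0.673) in cluster 6 and 0.626 (0.570 to 0.688) in cluster 8. None of these was past 2-fold. Over all lymphoid cells the ratio was 0.701 (0.660 to 0.744), and it turned above 1 (log2 0.30) with every cell given equal weight. In gamma-delta T-like cells it was 1.02 (0.707 to 1.46), and in mature SP thymocyte-like cells 1.52 (1.02 to 2.32), a value that turned to below 1 (log2 -1.13) with 30 principal components.

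Il2rg, the common gamma chain, was present throughout the lymphoid cells, DP thymocytes included. DP thymocyte-like cells had 452 CPM in FTOC (1140 UMIs) and 428 CPM in ORFTOC (436 UMIs), cycling thymocyte-like cells had 189 and 168 CPM, and immune cluster 7 had 711 and 701 CPM. The DP stage thus carried the shared chain without detectable Il7r or Il2rb above background. The level in immune cluster 7 overlapped those of ILC2-like (818 and 739 CPM) and ILC3-like cells (750 and 682 CPM), and mature SP thymocyte-like cells had 569 and 577 CPM.

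Within lymphoid cells Il2rg was close to even between the pools. Its ratio over all lymphoid cells was 0.968 (0.936 to 1.00), and by class it ran from 0.864 (0.784 to 0.954) in immune cluster 9 to 1.07 (0.902 to 1.27) in gamma-delta T-like cells. It was 0.948 (0.847 to 1.06) in DP thymocyte-like and 1.01 (0.914 to 1.12) in mature SP thymocyte-like cells.

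**Figure D4:**
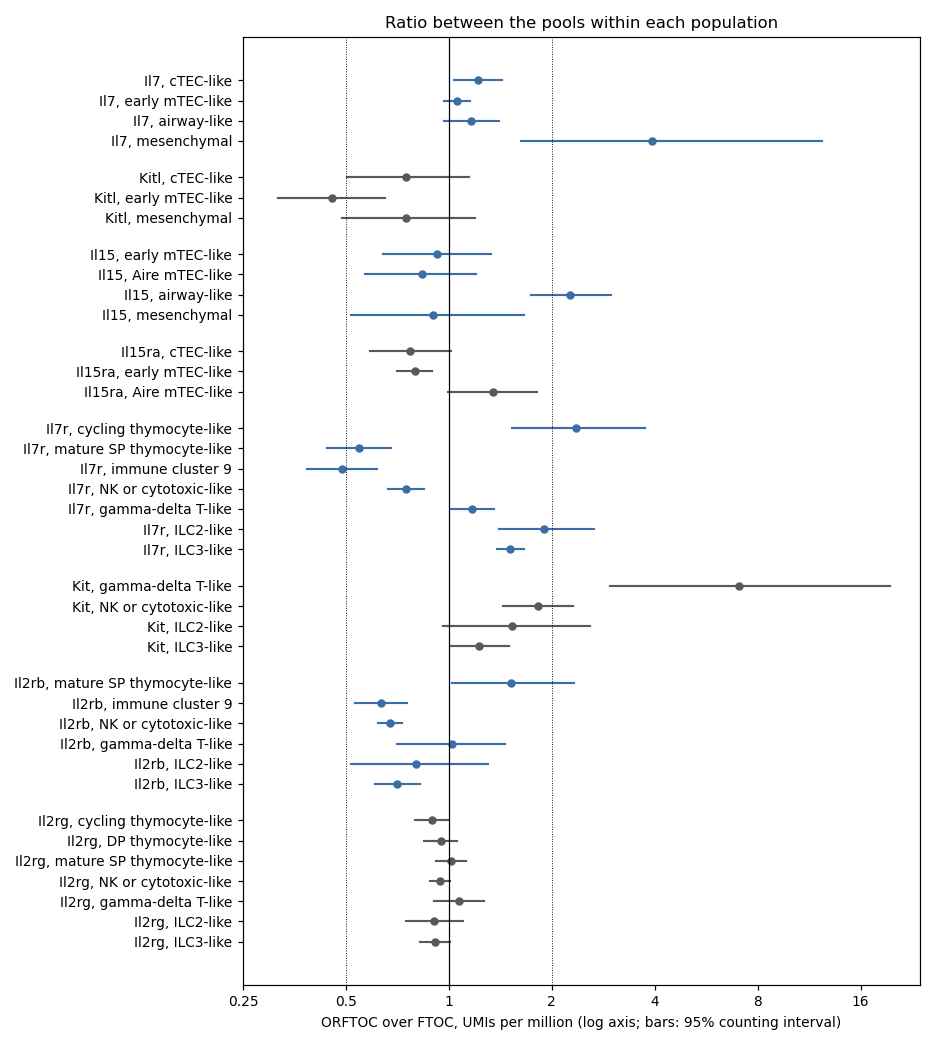
Ratio of ORFTOC over FTOC (x axis, log scale) of each member in the populations where it was counted, with bars for the 95% counting interval, a solid line at 1 and dotted lines at 0.5 and 2. In the lymphoid populations plotted Il2rg sits close to 1, Il2rb lies below 1 in cytotoxic-like and ILC3-like cells, and Il7r lies above 1 in ILC3-like (1.51) and below it in mature SP thymocyte-like cells (0.546).

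Il2rg also appeared outside lymphoid cells. Aire mTEC-like cells had 277 UMIs in FTOC (199 CPM) and 81 in ORFTOC (118 CPM), a ratio of 0.592 (0.456 to 0.760), while cTEC-like cells had 0 and 17 UMIs. Over both pools 10 of the 101 Aire mTEC-like cells held 40.2% of the Il2rg UMIs. In this class Ptprc had 22 UMIs (10.6 CPM) and Cd3e 15 (7.22 CPM) beside 358 of Il2rg. In lymphoid cells Ptprc stood at 525.6 CPM and Il2rg at 440.1 CPM. The part of lymphocyte RNA in the Il2rg level of Aire mTEC-like cells was not tested. Macrophage or monocyte-like cells had 288 and 220 CPM of Il2rg, and mesenchymal cells 46.3 and 34.0 CPM with Ptprc at 11.3 and 7.74 CPM. Dendritic-like cells had Il7r as well, with 52 UMIs in 29 cells (203 CPM, 152 to 266), beside Cd3e at 31.3 CPM.

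Receptor chains were seen together in a cell about as often as their separate shares gave within a class. In thinned ILC3-like cells Il7r and Il2rg were seen together in 27.1% (23.5 to 30.9), where the product of the separate shares was 28.5%. For Il7r and Kit the values were 12.1% (9.51 to 15.0) and 12.3%, and for Il7r and Il2rb 12.6% (9.98 to 15.6) and 12.4%. Il2rb and Il2rg in cytotoxic-like cells gave 10.2% (8.15 to 12.6) and 9.55%. Over all lymphoid cells Il7r and Kit were seen together in 1.70%, against a product of 0.528%, and both genes were high in ILC3-like and ILC2-like cells.

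The TCR library was a separate readout of the same cells. A productive TCR beta chain was found in 36.6% of cytotoxic-like, 91.7% of mature SP thymocyte-like, 82.7% of immune cluster 9, 18.9% of gamma-delta T-like, 2.62% of ILC3-like and 4.33% of ILC2-like cells. In cytotoxic-like cells without the chain Il2rb was 379 CPM (362 to 398) against 280 CPM (262 to 300) with it, Kit 48.2 against 25.5 CPM and Il7r 165 against 130 CPM, while Il2rg was 483 (463 to 503) against 457 CPM (433 to 481). Within immune cluster 8 alone the direction was the same, with Il2rb at 538 against 437 CPM, Kit at 80.8 against 46.5 CPM and Il7r at 92.1 against 52.0 CPM. By pool, the cluster 8 intervals of Il2rb, Kit and Il7r lay apart in ORFTOC and overlapped in FTOC. For Il7r in FTOC they were 59.7 to 89.6 CPM without the chain and 35.7 to 72.1 CPM with it. In cluster 6 Il7r was 255 against 187 CPM, and the intervals overlapped for Il2rb (168 to 205 and 148 to 187) and for Kit, which was 8.13 CPM without the chain and 10.3 CPM with it. The cluster 6 difference in Il7r lay in FTOC, at 303.9 (274.5 to 335.5) against 201.6 CPM (175.6 to 230.3). In ORFTOC the intervals overlapped, at 175 (147.2 to 206.5) against 165.1 CPM (135.9 to 198.6). Absence of a chain includes cells in which it was not captured.

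Over 18 populations with at least 50 cells and 7313 genes, the genes whose log2 levels followed a member most closely were named by Pearson's r, as a description, since all populations share 1 lane. Il7 was most like the epithelial genes Sfn (r = 0.991), Krt18 (0.989) and Krt8 (0.987). Kitl was followed by Megf6 (0.920), Arhgef40 and Stox2, and Il15 by Rab3d (0.903), Reg3g (0.896) and Cyp2f2 (0.877), of which Reg3g and Cyp2f2 are airway secretory genes. Il7r was followed by Adgrg5 (0.960), Rgs1 and Cxcr6, and Kit by Il18rap (0.905), Cers4 and Clnk. Il15ra was followed by Tmem150c (0.968), Acad9 and Slc46a2, Il2rb by Cd160 (0.991), Cd7 (0.984) and Riox2, and Il2rg by Rac2 (0.971), Laptm5 and Dock10.

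The wider pathway was read through 6 gene lists, chosen by role, in which past 2-fold has the meaning given for the members and is read beside 6.40% of all genes in lymphoid, 11.7% in epithelial and 7.73% in mesenchymal cells. Of the 7 other ligands of these families, 4 passed 20 UMIs in lymphoid cells and 3 were past 2-fold higher in ORFTOC, with a median log2 ratio of 1.58 against -0.05 over all genes. These were Il4 (0.900 CPM in FTOC, 20.2 CPM in ORFTOC), Il2 (2.70 and 12.1 CPM) and Csf1 (1.45 and 2.91 CPM). Il4 and Il2 were found in ILC2-like cells, at 228 and 129 CPM, and these cells were 235 of 2575 ORFTOC and 19 of 3006 FTOC lymphoid cells. Il9 had 0 UMIs and Il21 had 1 in lymphoid cells.

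Of the 7 other receptor chains, 6 passed in lymphoid cells and Il9r was past 2-fold (4.02 and 10.7 CPM), with 99.3 CPM in ILC2-like cells. Il21r, the IL-21 receptor, was highest in DP thymocyte-like cells, at 360 CPM, and Il2ra, the IL-2 receptor alpha chain, in ILC3-like cells, at 175 CPM. Aire mTEC-like cells had 73.2 CPM of Il2ra. In epithelial cells 5 chains passed, of which Il4ra was higher in ORFTOC (26.8 and 61.6 CPM) and Il21r (10.2 and 3.71 CPM) and Il9r (1.44 and 0.521 CPM) were lower. Among mesenchymal cells the TSLP gene Tslp, whose product uses Il7r with Crlf2, was lower in ORFTOC (31.9 and 8.60 CPM, ratio 0.269, 0.164 to 0.445), and Jak3 likewise (16.5 and 6.88 CPM).

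Few signalling genes were past 2-fold over lymphoid cells, where 6.40% of 12381 genes were. Counts from lists this short do not set these genes apart from all genes. None of the 6 JAK and STAT genes, none of the 7 survival and growth genes and none of the 8 regulators of Il7r was past 2-fold, with medians of -0.08, -0.12 and -0.19. Of 8 negative regulators Cish, a STAT5-induced inhibitor, was past 2-fold, at 40.3 CPM in FTOC and 82.6 CPM in ORFTOC (2.05, 1.86 to 2.26), and by class it was highest in ILC2-like (397 CPM) and ILC3-like cells (228 CPM). Bcl2, a survival gene induced by IL-7, was highest in ILC3-like cells (318 CPM), followed by mature SP thymocyte-like cells (186 CPM). Socs1, which restrains cytokine signals, was highest in DP thymocyte-like cells (1406 CPM), and so was Gfi1, a repressor of Il7r, at 58.4 CPM. Klf2 and Foxo1, activators of genes of mature T cells that include Il7r, were highest in mature SP thymocyte-like cells, at 950 and 157 CPM.

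In epithelial cells, where 11.7% of 14834 genes were past 2-fold, 1 of 6 JAK and STAT genes was, Stat6 (12.2 and 26.0 CPM), and 1 of 8 regulators, Runx1 (66.2 and 158 CPM), shares near that of all genes. No negative regulator or survival gene was. Runx1 was highest in airway-like cells, at 316 CPM, which were 110 of the FTOC and 346 of the ORFTOC epithelial cells.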

How the data were processed

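Per the labels and the study's methods, the authors dissociated the cultures, pooled 2 ORFTOC and 2 FTOC cultures, labelled each pool with a hashtag antibody, mixed them and made gene expression, TCR and hashtag libraries with a 5′ kit. Counts were made with Cell Ranger 6.1.2 on mm10 (the header of the deposited matrix names version 4), and the authors analysed them with Seurat 4.2.0. The deposited counts are raw UMIs per gene and barcode, with no normalization, for 705161 barcodes. The cultures of a pool cannot be separated, so each pool is 1 sample.

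From these counts, cells with at least 600 genes and 0.4 to 10% mitochondrial UMIs (10245) were assigned to pools with HTODemux at quantile 0.99 (8983 singlets, 590 doublets, 672 without a call). A further 591 cells with the highest share of such doublets among their 50 nearest neighbours were removed, standing for doublets within a pool. Cells were clustered in Seurat 5.3.0 (R 4.3.3) after SCTransform 0.4.2 with cell cycle regression, 18 principal components and resolutions of 0.4 and, for immune cells, 1. The 8 members were removed from the genes used for clustering. A cluster took a name when at least 3 markers were detected, 1 was among its 10 leading genes, no other class had more there, and its score led by 0.25. Levels, ratios and intervals were computed in Python 3.11.15 with scipy 1.17.1. A gene was compared between pools with at least 20 UMIs over both and called past 2-fold, with counts under 3 set to 3. On simulated epithelial counts (14845 genes), 100% of 200 changed genes were recovered. That run checks the calculation only and cannot show the spread between cultures.

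The members, gene lists and rules were chosen with earlier results of these data known. The genes named are the members in every population, list genes past 2-fold or leading in a population, the 3 genes most like each member, leading genes of clusters, and sex-linked genes. The splits by coreceptor and the check of Kit-high cells were chosen after values were seen. Alternatives covered hashtag calls, doublets, gene and mitochondrial limits, normalization, components, resolution, members in clustering, equal weight per cell, ambient subtraction and removal of cells with a marker of another compartment. The unfiltered TCR list was not used here.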

Additional observations from a re-analysis of the deposited data

Results flagged for a closer look

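The Il7r ratio between the pools pointed in opposite directions by class, with a log2 ratio of 1.24 in cycling thymocyte-like and -0.87 in mature SP thymocyte-like cells, a gap of 2.11. The Il7r levels of cycling thymocyte-like cells lay under the 66.4 CPM of near-empty droplets. The Il2rb log2 ratio was 0.61 in mature SP thymocyte-like and -0.57 in NK or cytotoxic-like cells, a gap of 1.18. With 1 sample per pool, neither gap was tested. The Il2rb value in mature SP thymocyte-like cells went to -1.13 with 30 principal components and -0.07 with a mitochondrial limit of 5%.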

How the results depend on the processing

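No paired analysis was possible because each pool is 1 sample and no result comes from a test. All values here are log2 ratios of ORFTOC over FTOC. With hashtags assigned by ratio the epithelial values were 0.314 for Il7, -0.357 for Kitl, 0.655 for Il15 and -0.378 for Il15ra. With every cell given equal weight they were 1.21 for Il15 in epithelial cells, and in lymphoid cells 1.39 for Il7r, 1.93 for Kit, 0.303 for Il2rb, which changed sign from -0.51, and 0.0449 for Il2rg. With a mitochondrial share of up to 5% lymphoid Il7r was 0.812 and the log2 ratio of Il2rg in lymphoid cells 0.00266. With class shares held equal between the pools, chosen after seeing the data, the values were 0.146 for Il7 and 0.593 for Il15 in epithelial cells, and 0.238 for Il7r, 0.509 for Kit and -0.0965 for Il2rg in lymphoid cells. The number of members past 2-fold in epithelial cells went from 1 to 2 with hashtags by ratio, with doublets kept and without the cluster led by T cell genes (the last chosen after seeing the data), to 3 with the ambient profile subtracted and to 0 with log-normalised counts. In lymphoid cells it went from 1 to 2 with the ambient profile subtracted and without cells holding a marker of another compartment. Of the single populations, Il2rg in airway-like cells turned from 1.87 to -0.419 with log-normalised counts, and Il7r in early mTEC-like cells from 2.13 to -0.0147 with hashtags by ratio. For the other values of single populations, each recomputed under every alternative, 140 of the recomputed values moved beyond the counting interval and 1186 did not. The causes were not tested. With 1 sample per pool, the spread between cultures is unknown, and counts under about 20 UMIs leave wide intervals.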
